A study of Mus musculus with 2 samples.

Results

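Expression of 7 genes, Gfap, Hopx, Fabp7, Vim, Nes, Serpina3n and Cd44, was described across the cell classes of the mouse dentate gyrus and within its astrocyte-like cells. The genes were chosen by name as members of the radial glia and reactive astrocyte programmes, out of 17592 gene columns, and all 7 had a column. The tissue came from C57BL/6 mice of 16 months, labelled old, and of 3 months, labelled young, with 1 library per age and no other genotype or treatment given. Cells were dissociated with papain, sorted as live by exclusion of propidium iodide and sequenced as 3' libraries that count unique molecular identifiers (UMIs). How many animals were used per library is not given in the sources used here. The brain cells of both libraries were mostly the same barcodes, so values are those of the young library unless the old one is named, and no test or p-value was possible.

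The dentate gyrus keeps radial glia-like neural stem cells in adult mice. These cells share much of their transcriptome with astrocytes, and both make the intermediate filament protein GFAP. Vimentin (Vim) and nestin (Nes) are intermediate filament proteins of neural stem cells, and both are also made by blood vessel cells. Hopx is an atypical homeodomain protein known as a marker of quiescent stem cells of the dentate gyrus, and Fabp7 is the brain fatty acid-binding protein of radial glia. Serpina3n, a secreted protease inhibitor, and Cd44, the cell surface receptor for hyaluronan, are used together with Gfap and Vim as markers of reactive astrocytes.

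The old library held 1430 cells, 7451506 UMIs and a median of 3856 UMIs per cell, and the young library held 2463 cells, 16217559 UMIs and a median of 6663. The old library shared 1401 barcodes (98% of its cells) with the young one. Of 1141 old and 1148 young cells outside a group with almost no mitochondrial transcripts, called brain-class cells here, 1113 barcodes occurred in both libraries, and 100% of these fell in the same class. Cell classes were made with the 7 genes held out of the clustering and of the markers. All 15 astrocyte markers, including Aqp4, Aldoc and Slc1a2, were at least 4-fold higher in the 304 young astrocyte-like cells than in other brain-class cells, with a summed level of 270.8 against 6.77 UMIs per 10,000. Astrocyte-like cells were shallow, with a median of 1912 UMIs against 8006.5 in microglia-like cells. Intervals are 95% and cover counting error only.

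On the GRCm38 assembly the members lie on 6 chromosomes. Gfap is on the minus strand of chromosome 11 (102887336-102900912), Hopx on the minus strand of chromosome 5 (77086988-77115121) and Fabp7 on the plus strand of chromosome 10 (57784881-57788450). Vim (13573927-13582826, plus strand) and Cd44 (102811141-102901665, minus strand) are both on chromosome 2. Nes is on the plus strand of chromosome 3 (87971078-87980451), and Serpina3n on the plus strand of chromosome 12 (104406729-104414329). Genes annotated on the opposite strand overlap Gfap, Hopx and Cd44, and the one that overlaps Hopx is Hopxos. The 3' ends of all 7 were nearly unique: the largest share of 31-base words of the last 500 bases that also occurred in another gene was 2.17%, for Hopx, and Serpina3n had 1.70%.

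The promoter windows of 5 members are shown because these genes had their highest level in different cell classes, with Gfap and Hopx in astrocyte-like cells, Fabp7 in oligodendrocyte precursor-like cells, Vim in smooth muscle-like cells and Nes in endothelial-like cells. Each window, taken from RefSeq on GRCm38.p6, runs 5' to 3' on the gene's strand, from 250 bases before to 50 bases after an annotated start. Capitals mark matches on either strand to 5 motifs. The TATA box, bound by TBP, was searched as TATAAA, the box bound by NF-Y as CCAAT and the GC box, bound by Sp1, as GGGCGG. The site of STAT factors was searched as TTCNNNGAA, and that of RBPJ, the DNA-binding factor of Notch signalling, as TGGGAA. Hopx has a window at each of its 2 annotated starts, on the minus strand at chr5:77115074-77115373 and chr5:77095218-77095517. The others lie at chr11:102897151-102897450 (Gfap, minus), chr10:57784673-57784972 (Fabp7, plus), chr2:13574061-13574360 (Vim, plus) and chr3:87970843-87971142 (Nes, plus).
Gfap: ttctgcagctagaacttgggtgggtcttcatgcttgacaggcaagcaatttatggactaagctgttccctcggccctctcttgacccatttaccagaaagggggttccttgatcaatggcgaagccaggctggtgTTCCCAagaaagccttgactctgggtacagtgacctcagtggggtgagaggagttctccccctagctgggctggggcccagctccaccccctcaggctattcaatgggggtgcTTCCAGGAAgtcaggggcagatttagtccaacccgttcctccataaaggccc
Hopx, upstream start: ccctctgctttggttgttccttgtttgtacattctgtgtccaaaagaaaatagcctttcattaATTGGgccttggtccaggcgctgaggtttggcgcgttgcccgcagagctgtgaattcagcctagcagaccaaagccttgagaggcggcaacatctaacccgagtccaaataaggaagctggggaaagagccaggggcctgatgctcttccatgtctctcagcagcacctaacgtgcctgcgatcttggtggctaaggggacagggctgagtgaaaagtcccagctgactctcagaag
Hopx, downstream start: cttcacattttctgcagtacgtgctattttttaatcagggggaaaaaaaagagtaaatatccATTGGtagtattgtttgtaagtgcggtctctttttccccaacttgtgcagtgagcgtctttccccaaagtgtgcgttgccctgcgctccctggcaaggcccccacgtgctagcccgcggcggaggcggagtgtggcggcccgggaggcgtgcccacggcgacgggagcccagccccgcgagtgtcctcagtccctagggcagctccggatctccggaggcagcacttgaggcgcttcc
Fabp7: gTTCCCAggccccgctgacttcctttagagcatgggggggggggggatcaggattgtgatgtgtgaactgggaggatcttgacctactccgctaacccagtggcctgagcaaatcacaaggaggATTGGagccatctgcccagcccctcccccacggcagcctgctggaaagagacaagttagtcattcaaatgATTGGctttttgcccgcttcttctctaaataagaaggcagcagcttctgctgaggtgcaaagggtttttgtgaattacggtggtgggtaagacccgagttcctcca
Vim: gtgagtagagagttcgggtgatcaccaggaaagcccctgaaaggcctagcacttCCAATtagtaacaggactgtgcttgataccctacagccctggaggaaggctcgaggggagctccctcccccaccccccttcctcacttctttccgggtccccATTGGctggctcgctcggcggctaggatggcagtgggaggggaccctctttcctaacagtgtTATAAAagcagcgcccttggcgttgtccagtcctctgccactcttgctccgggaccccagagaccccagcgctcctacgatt
Nes: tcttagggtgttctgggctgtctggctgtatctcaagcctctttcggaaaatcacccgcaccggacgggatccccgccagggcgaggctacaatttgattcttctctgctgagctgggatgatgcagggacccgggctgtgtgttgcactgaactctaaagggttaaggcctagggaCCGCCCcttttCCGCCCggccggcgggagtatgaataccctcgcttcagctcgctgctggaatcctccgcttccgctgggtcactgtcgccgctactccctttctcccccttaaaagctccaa

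All 7 members had a window, 8 in all with both Hopx starts. The Gfap window held a STAT match, TTCCAGGAA, that begins 2 bases before the start, and 8.30% of 32851 windows of the same length held a STAT match. It also held an RBPJ match, as did the windows of Fabp7, Serpina3n and Cd44, and 25.6% of all windows held one. Vim had a TATA box 32 bases before its start, which 13.6% of all windows had, and 2 CCAAT boxes. Both Hopx windows had 1 CCAAT box and Fabp7 had 2, against 37.4% of all windows with at least 1. Nes had 2 GC boxes and Cd44 had 1, against 35.7% of all windows. TTGGC, a nuclear factor I recognition sequence, was searched but not capitalised. It was found in the Vim, Fabp7 and upstream Hopx windows and in 46.7% of all windows, and its match in Fabp7 and 1 of 2 in Vim overlap a CCAAT box. Neither TGANTCA (AP-1; 7.81% of all windows) nor ATGCAAAT (octamer; 1.74%) was found in the 8 windows. CG pairs numbered 21 in the downstream Hopx window, 18 in Nes, 11 in Vim and 8 in the upstream Hopx window, against 6 in Fabp7 and Cd44 and 3 in Gfap and Serpina3n. The median of all windows was 7. These matches describe letters only.

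Across cell classes the 7 genes did not share 1 pattern. Among brain-class cells Gfap and Hopx were highest in astrocyte-like cells, Fabp7 in oligodendrocyte precursor-like cells, Vim in smooth muscle-like and endothelial-like cells, and Nes in endothelial-like cells. Serpina3n and Cd44 were near the limit of detection in every class. Of 6 members with at least 20 UMIs, 3 (Gfap, Hopx and Fabp7) were at least 4-fold higher in astrocyte-like cells than in other brain-class cells, against 4.35% of 12336 genes. Fabp7 was under 4-fold when each cell counted alike (log2 ratio 1.80) or with a pseudocount of 1 (1.55), which left 2. None was at least 4-fold lower, against 4.7% of genes.

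**Figure D1:**
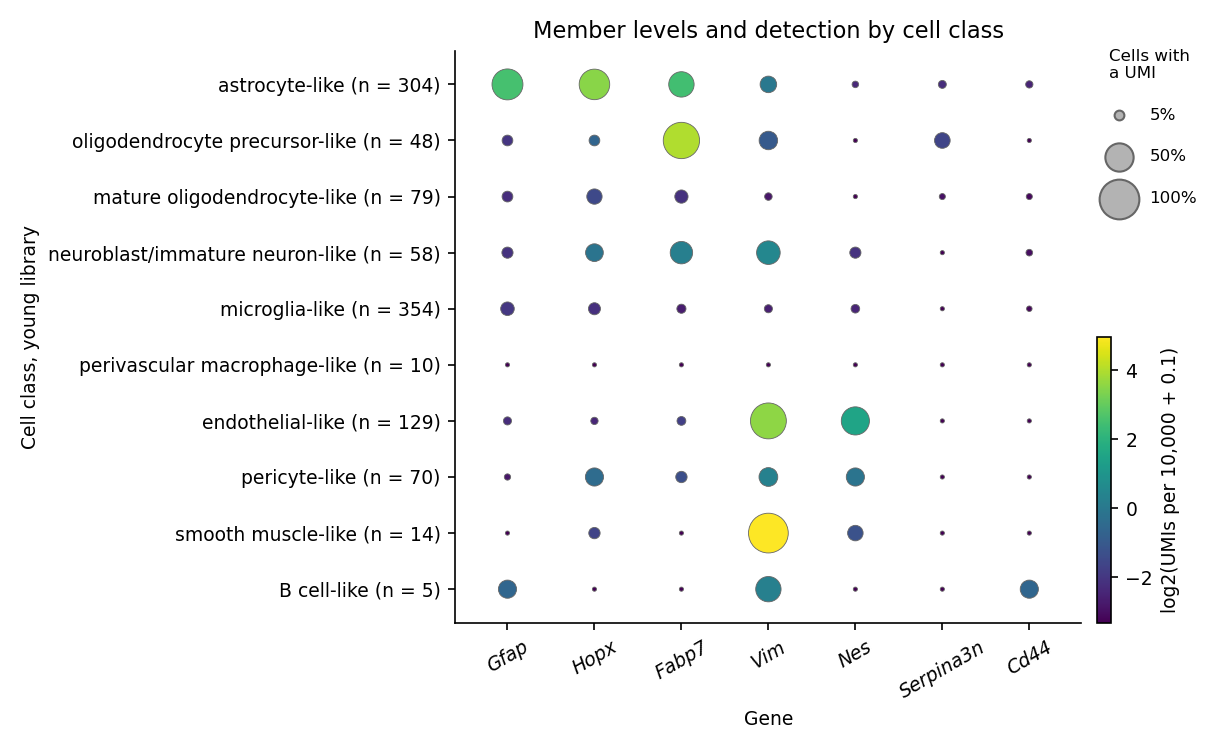
Level and detection of the 7 genes (x axis) in 10 cell classes of the young library (y axis, with the number of cells). Colour gives log2 of summed UMIs per 10,000 plus 0.1, dot area the share of cells with a UMI, and the smallest dots mark classes with no UMI; Gfap and Hopx stand out in astrocyte-like cells, Fabp7 in oligodendrocyte precursor-like cells, and Vim and Nes in vascular classes.

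Gfap, the main intermediate filament of astrocytes, had 514 UMIs in astrocyte-like cells, a summed level of 5.68 UMIs per 10,000 (5.2 to 6.19), and 183 of 304 cells (60.2%, 54.5 to 65.7) had a UMI. Other brain-class cells had 75 UMIs, a level of 0.135. The log2 ratio was 4.62, with a pseudocount of 0.1 as in all log2 ratios here. Astrocyte-like cells held 87.3% of all Gfap UMIs of brain-class cells. Levels below them ran from 0.154 in microglia-like cells to 0.0428 in pericyte-like cells, and no neighbours in that order differed beyond counting error. The order leaves out 5 B cell-like cells, which had 1 Gfap UMI, and the 14 smooth muscle-like and 10 perivascular macrophage-like cells, which had none. Within astrocyte-like cells Gfap was spread over many cells: its values per cell had a lowest of 0, a median of 3.27 and a highest of 48.6 UMIs per 10,000, and 41 cells held 50% of its UMIs.

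Hopx had the highest level of the 7 in astrocyte-like cells by UMIs, which were not adjusted for gene length because 3' ends were counted. It had 1016 UMIs there, a level of 11.2 (10.5 to 11.9), and 178 cells (58.6%, 52.8 to 64.1) had a UMI. Other brain-class cells had a level of 0.270, a log2 ratio of 4.94. Values per cell had a lowest of 0, a median of 4.84 and a highest of 52.1. Neuroblast-like cells followed at 0.807, pericyte-like cells at 0.642 and oligodendrocyte precursor-like cells at 0.539, and neighbours among these 3 did not differ beyond counting error. In pericyte-like cells, mural cells of capillaries, 14 of 70 cells (20%, 11.4 to 31.3) had a Hopx UMI at a median depth of 3206 UMIs. Of 19 Hopx UMIs in oligodendrocyte precursor-like cells, 17 came from 1 cell, and the level without it was 0.0567.

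Fabp7, which binds long-chain fatty acids, was split between 2 classes. Oligodendrocyte precursor-like cells, the dividing glia that give rise to oligodendrocytes, had 561 UMIs, a level of 15.9 (14.6 to 17.3), and 40 of 48 cells (83.3%) had a UMI. Their values per cell had a lowest of 0, a median of 13.1 and a highest of 61.1. Fabp7 was the single member at least 4-fold higher in this class than in other brain-class cells (1 of 6, against 3.75% of genes), and 2 members, against 4.05%, were at least 4-fold lower. Astrocyte-like cells had 490 UMIs, a level of 5.42 (4.95 to 5.92), and 122 cells (40.1%) had a UMI. The level in oligodendrocyte precursor-like cells was 2.60 to 3.32 times that in astrocyte-like cells by the interval of the ratio. After each cell was thinned to 2000 UMIs, 81.0% of 42 precursor-like and 49.7% of 147 astrocyte-like cells had a Fabp7 UMI. In mature oligodendrocyte-like cells the level was 0.126, and 0 members were at least 4-fold higher there (against 3.25% of genes) and 5 lower (against 8.04%).

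Among brain-class cells Vim was mainly a transcript of 2 vascular classes. The 1315 young cells with almost no mitochondrial transcripts, which are not among these, had a Vim level of 25.5. Smooth muscle-like cells had 291 UMIs, a level of 31.3 (27.8 to 35.1), and all 14 cells had a UMI. Their values per cell had a lowest of 2.05, a median of 29.3 and a highest of 50.8. At a clustering resolution of 0.5 no smooth muscle-like class formed, and a pericyte-like cluster of 84 cells had the smooth muscle genes Acta2, Tagln and Myl9 among its leading genes. Endothelial-like cells, which line the vessels, had 541 UMIs, a level of 11.8 (10.8 to 12.8), and 105 of 129 cells (81.4%) had a UMI. Together these classes held 48.6% (endothelial-like) and 26.1% (smooth muscle-like) of the Vim UMIs of brain-class cells. Neuroblast-like cells had 1.32, pericyte-like cells 1.11 and astrocyte-like cells 0.895 (0.711 to 1.11), with no neighbours among them apart beyond counting error. Astrocyte-like cells had 81 Vim UMIs in 50 cells (16.4%, 12.5 to 21.1), and the log2 ratio to other brain-class cells was -0.98. Oligodendrocyte precursor-like cells lay below them, at 0.397. In 77 unnamed cells 61 of 78 Vim UMIs came from 1 cell.

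Nes followed Vim into endothelial-like cells, with 128 UMIs, a level of 2.79 (2.33 to 3.32) and 64 cells (49.6%) with a UMI. This was 68.4% of the Nes UMIs of brain-class cells. Pericyte-like cells had 19 UMIs, a level of 0.814, and 14 cells (20%) had a UMI. No member was at least 4-fold higher in pericyte-like cells (against 3.1% of genes), and 2 were lower (against 4.55%). Vim and Nes were the 2 members at least 4-fold higher in endothelial-like than in other brain-class cells (2 of 6, against 3.95% of genes), and 3 were at least 4-fold lower (against 5.39%). Astrocyte-like cells had 8 Nes UMIs in 5 cells (1.64%, 0.536 to 3.80), a level of 0.0884, which did not differ beyond counting error from the 0.0805 of microglia-like cells. Oligodendrocyte precursor-like and mature oligodendrocyte-like cells had none, which at the limit of 3 UMIs allows levels of up to 0.0851 and 0.0421. Endothelial-like cells with a Nes UMI had a Vim UMI in 87.5% of 64 cells, against 75.4% of 65 cells without, with Vim levels of 12.1 and 11.4 and median depths of 3983 and 2535 UMIs.

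Serpina3n had 20 UMIs in all brain-class cells. Astrocyte-like cells had 10 in 9 cells (2.96%, 1.36 to 5.55), a level of 0.111. Oligodendrocyte precursor-like cells had 8 in 7 of 48 cells (14.6%, 6.07 to 27.8), a level of 0.227. These levels did not differ beyond counting error. Precursor-like cells were deeper, at a median of 7999 against 1912 UMIs. Thinned to 2000 UMIs, 9.52% (2.66 to 22.6) of precursor-like and 2.04% (0.423 to 5.85) of astrocyte-like cells had a Serpina3n UMI. The 2 intervals overlapped. The other 2 Serpina3n UMIs were in 1 mature oligodendrocyte-like cell. Microglia-like cells had none in 354 cells, which allows a level of up to 0.0105. Cd44 had 17 UMIs in 15 cells of all classes. Of these, 7 were in 7 astrocyte-like cells (2.30%, 0.931 to 4.69), a level of 0.0774, and 3 in microglia-like cells. With under 20 UMIs Cd44 was left out of the ratios between classes.

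**Figure D2:**
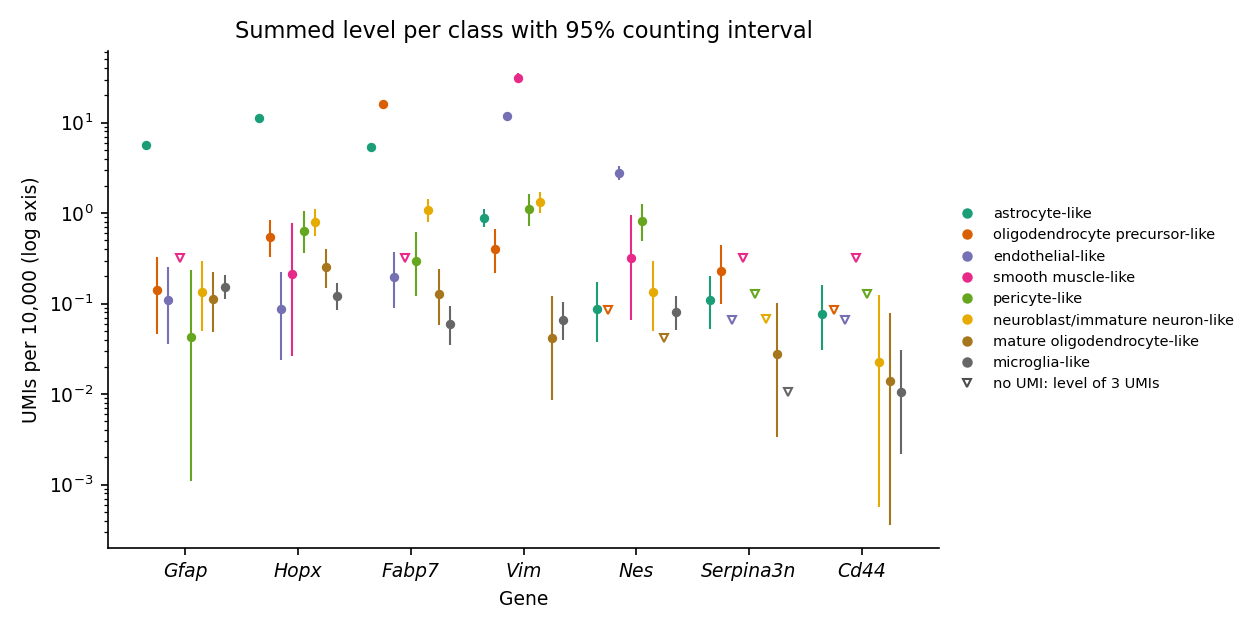
Summed level of each gene (x axis) in 8 cell classes of the young library, as UMIs per 10,000 on a log axis, with 95% counting intervals; open triangles mark the level of 3 UMIs for a class with no UMI. For Gfap and Hopx 1 class stands above the rest, for Fabp7, Vim and Nes a vascular or precursor class leads, and Serpina3n and Cd44 are at 0.227 or lower.

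Low values of the members were also seen in microglia-like cells, the immune cells of the brain. Microglia-like cells, at a median of 8006.5 UMIs, had a Gfap UMI in 10.7% of cells, a Hopx UMI in 8.19%, a Fabp7 UMI in 4.24%, a Nes UMI in 3.67% and a Vim UMI in 3.11%. No member was at least 4-fold higher in microglia-like cells (against 2.7% of genes), and 4 were lower (against 8.21%). Hopx UMIs per Gfap UMI were 1.98 in astrocyte-like, 0.795 in microglia-like and 2.25 in mature oligodendrocyte-like cells. Slc1a2 UMIs per Gfap UMI were 15.1, 5.48 and 8.5 in the same order. These ratios rest on 44 Gfap UMIs in microglia-like and 8 in mature oligodendrocyte-like cells, and the source of these UMIs was not tested. After thinning to 2000 UMIs, Gfap was detected in 58.5% of astrocyte-like and 3.83% of microglia-like cells, and Hopx in 78.2% and 1.47%. The thinned shares for Nes were 1.36% of astrocyte-like (0.165 to 4.83) and 1.18% of microglia-like cells (0.322 to 2.99), with overlapping intervals. These are 2 and 4 cells, and 5 of the 23 microglial Nes UMIs at full depth came from 1 cell.

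In neuroblast-like cells, the immature granule neurons and their precursors, Vim had 59 UMIs in 20 of 58 cells, Fabp7 had 48 in 18 cells and Hopx had 36 in 11 cells. Single cells weighed on these sums: 18 of the Fabp7 and 14 of the Hopx UMIs came from 1 cell each. No member was at least 4-fold higher in this class (against 2.78% of genes), and 1 was lower (against 6.53%). Eomes, a transcription factor of intermediate progenitors, was detected in 80.0% of the 20 cells with and 34.2% of the 38 cells without a Vim UMI. Sox2, a stem and progenitor cell factor, was detected in 90% of cells with and 34.2% of cells without Vim. For Fabp7 the shares with Eomes were 88.9% of 18 cells with and 32.5% of 40 cells without. Dcx, a microtubule protein of migrating neurons, was detected in 75% with and 60.5% without Vim, a direction that turned at equal depth. Depth moved with these splits, at medians of 11711 UMIs with and 5190.5 without Vim, and 11711 with and 4961 without Fabp7. Thinned to 2000 UMIs, 5 of 51 cells had a Vim UMI. Of these, 2 (40.0%, 5.27 to 85.3) had Eomes, against 9 of 46 (19.6%, 9.36 to 33.9) without Vim. Sox2 was in 3 (60%, 14.7 to 94.7) and 7 (15.2%, 6.34 to 28.9), and Dcx in 2 (40%) and 23 (50%). The intervals overlapped for all 3 genes.

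Within astrocyte-like cells the members were detected in overlapping sets. Of 304 cells, 63 had a UMI of no member, 67 of 1, 72 of 2, 71 of 3, 25 of 4 and 6 of 5, and no cell had more. The median depth was 1127 UMIs in cells with none and 7397.5 in cells with 5. Gfap and Hopx were detected together in 129 cells (42.4%), Gfap, Hopx and Fabp7 in 79 (26.0%), and Gfap, Vim, Hopx and Fabp7 in 26 (8.55%). Gfap and Nes, a common pair for naming neural stem cells, were detected together in 4 cells (1.32%, 0.360 to 3.33), and Gfap, Vim and Nes in 2. Gfap and Serpina3n were detected together in 8 cells, and Vim and Cd44 in 4.

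At the depth deposited, cells with a UMI of 1 of the 4 commoner members had the other 3 more often. A Hopx UMI was found in 70.5% of the 183 cells with and 40.5% of the 121 cells without Gfap. A Fabp7 UMI was found in 51.9% of cells with and 22.3% of cells without Gfap, and in 56.7% of the 178 cells with and 16.7% of the 126 cells without Hopx. Of the 50 cells with a Vim UMI, 92% had Hopx and 84.0% had Gfap, against 52.0% and 55.5% of the 254 cells without. Cells with a UMI were deeper in each split. Median UMIs were 3030 with and 1266 without Gfap, 3454 with and 1178.5 without Hopx, 4153 with and 1316.5 without Fabp7, and 4614.5 with and 1654 without Vim.

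Thinning each cell to 1 depth changed these pairs in different ways. At 2000 UMIs, which kept 147 cells and left out 157, Hopx was detected in 77.9% of cells with and 78.7% of cells without Gfap. Fabp7 was detected in 45.3% with and 55.7% without Gfap. The excess of Hopx and of Fabp7 in cells with Gfap was thus not detectable at equal depth, and at 1000 UMIs (263 cells) it was 48.0% against 44.8% for Hopx and 29.6% against 28.5% for Fabp7. The pair of Hopx and Fabp7 kept its direction. At 2000 UMIs Fabp7 was detected in 54.8% of cells with (45.2 to 64.1) and 31.2% of cells without Hopx (16.1 to 50.0), with intervals that overlapped. At 1000 UMIs the shares were 38.0% with (29.3 to 47.3) and 21.1% without (14.7 to 28.8). The Hopx level was 15.6 UMIs per 10,000 in thinned cells with Fabp7 and 8.99 in those without at 2000 UMIs, a ratio of 1.74 (1.4 to 2.17), and 12.8 and 7.01 at 1000 UMIs, a ratio of 1.82 (1.39 to 2.39). These intervals take UMIs as independent and do not cover the spread between cells.

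Vim was too rare in thinned cells to give a firm value. At 2000 UMIs Hopx was detected in 81.8% of the 22 cells with and 77.6% of the 125 cells without Vim. At 1000 UMIs it was detected in 75% of 20 cells with (50.9 to 91.3) and 43.6% of 243 cells without (37.3 to 50.1). Gfap was detected in 72.7% of cells with and 56.0% of cells without Vim at 2000 UMIs, and in 45.0% and 36.6% at 1000 UMIs, with overlapping intervals at both depths. Across the 304 cells Pearson's r of the deposited log values was 0.41 for Hopx and Fabp7, 0.31 for Hopx and Vim and 0.19 for Gfap and Hopx. The cells share 1 library, and r with the log of total UMIs was 0.53 for Hopx, 0.47 for Fabp7, 0.27 for Vim and 0.18 for Gfap.

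**Figure D3:**
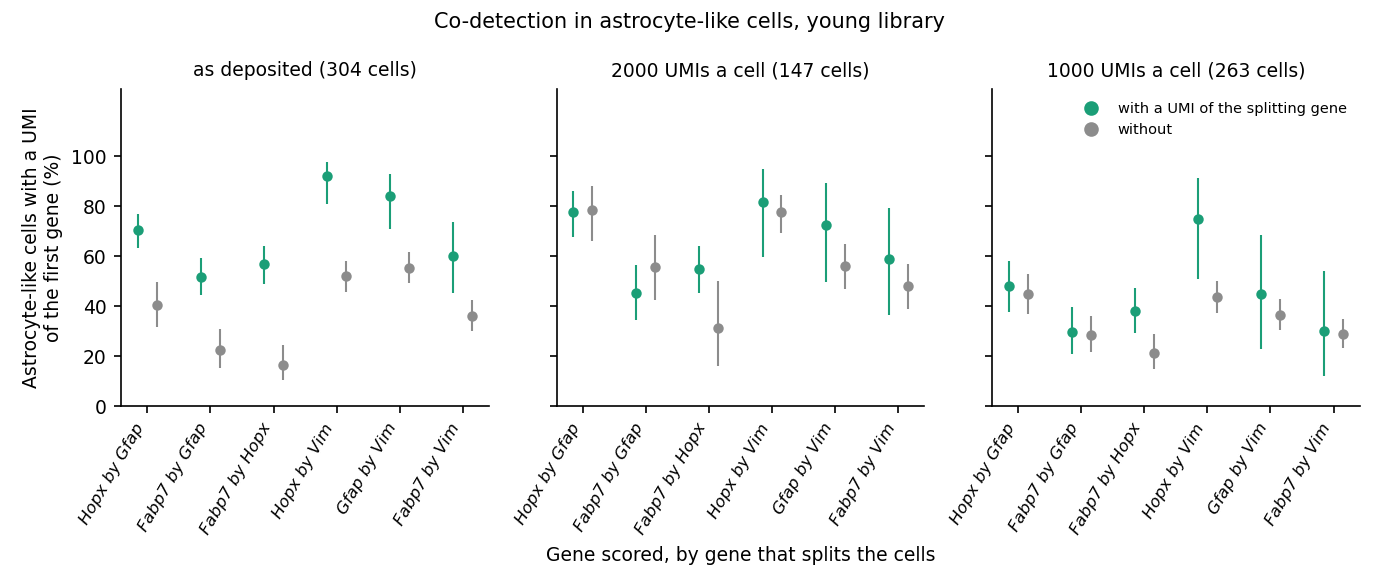
Share of astrocyte-like cells (y axis, percent) with a UMI of 1 gene, in cells with (green) and without (grey) a UMI of the gene that splits them (x axis), at the deposited depth and after thinning to 2000 or 1000 UMIs a cell; bars are exact 95% intervals. The gaps for Hopx and Fabp7 by Gfap close after thinning, and the gap for Fabp7 by Hopx keeps its direction at both depths.

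RNA of another cell type moved with the same splits. The summed level of 14 microglial markers, all detected on both sides, was 5.51 UMIs per 10,000 in cells with and 38.7 in cells without Gfap, and 4.83 in cells with and 45.2 in cells without Hopx. The summed level of 15 astrocyte markers was 279.5 with and 244.7 without Gfap. The part of depth and of microglial RNA in these splits was not tested.

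Of 3374 genes with at least 50 UMIs in astrocyte-like cells, 197 (5.84%) were at least 2-fold higher and 180 (5.33%) at least 2-fold lower in cells with than in cells without a Gfap UMI. The lowest ratios were those of microglial or stress genes. Gpr34, a microglial receptor, had a log2 ratio of -3.62, the early stress gene Atf3 -3.19, the complement genes C1qb -3.16 and C1qc -2.90, and the protease Ctss -2.78. The highest were Cav2 (2.01), a caveolin, Nudt2 (1.92), Psmc5 (1.90), a proteasome subunit, Cyr61 (1.90), Ndufb6 (1.87), Imp3 (1.82), S100a10 (1.80), Rnf7 (1.77), Cbr1 (1.67) and Sar1b (1.67). These were rare genes, with 49 to 121 UMIs in cells with and 3 to 10 in cells without Gfap, and none of the 10 had enough UMIs to be compared after thinning to 2000 UMIs. In the old rows, 2 of them were again among the 10 highest. Among the members the log2 ratio was 1.54 for Hopx, 1.22 for Vim and 0.82 for Fabp7, at the unequal depths given above.

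In the splits by the other members, Pdpn, a membrane glycoprotein of glia, led for Hopx, with 86 UMIs in cells with and 1 in cells without, followed by 1810037I17Rik, Dctn3, Mrpl27 and Sar1b. At least 2-fold higher with Hopx were 10.5% of genes, and 10.4% were lower. Cyr61, an early-response matrix protein, led for Vim (log2 ratio 2.12), followed by Cd9, Fos, G0s2 and Mettl26, with 0.978% of genes higher and 6.85% lower. For Fabp7 the leading genes were Gm17750, Gm11681, Mrpl15, Cyr61 and Bex3, with 2.28% of genes higher and 7.14% lower. The Gfap level was 5.64 UMIs per 10,000 in cells with and 5.81 in cells without Hopx, and 5.13 in cells with and 6.50 in cells without Fabp7.

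The astrocyte-like cells formed 2 clusters, which were made without the members. The smaller cluster, 24 young cells led by the metallothionein genes Mt3 and Mt1, the glycolytic gene Aldoc and glutathione transferase genes, had higher Gfap and Hopx than the larger cluster of 280 cells. Gfap was 10.1 (7.84 to 12.8) in the smaller and 5.33 (4.84 to 5.84) in the larger cluster, with a UMI in 23 of 24 cells (95.8%) and 57.1% of cells. Hopx was 24.2 (20.6 to 28.2) in the smaller and 10.2 (9.51 to 10.9) in the larger. Fabp7 was 5.94 and 5.37, and Vim 0.743 and 0.907, with overlapping intervals. No cell of the smaller cluster had a UMI of Nes, Serpina3n or Cd44, which with 24 cells allows shares of up to 14.2%. The larger cluster had 1.79%, 3.21% and 2.5% of cells with a UMI, so the clusters cannot be told apart for these genes. Median depth was 2647 UMIs in the smaller and 1857 in the larger cluster, and the median mitochondrial share was 9.68% and 6.96%. Their part in the result was not tested.

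Related genes were taken from 9 lists and are read beside all 12336 genes, whose median log2 ratio of astrocyte-like to other brain-class cells was 0.01. Of all 12336 genes, 4.35% were at least 4-fold higher and 4.7% at least 4-fold lower in astrocyte-like cells. Of 34 measured radial glia or stem cell genes, 23 were at least 4-fold higher in astrocyte-like cells and 1 lower, with a median of 2.51. With a pseudocount of 1 the count at least 4-fold higher was 11. The highest were Aldoc (5.70), the growth factor receptor Fgfr3 (5.23), Id4 (4.96), an inhibitor of bHLH factors, and Hopx (4.94), and the lowest Lpar1 (-2.23), a lysophosphatidic acid receptor, Nes (-1.16), Vim (-0.98) and Prom1 (-0.16). This list holds 5 of the members, and 3 of its genes, Aldoc, Slc1a3 and Fgfr3, were also astrocyte markers that named the class. In all, 15 of its 38 genes were markers of some class, and Aldoc, Slc1a3, Glul and Apoe are also on the astrocyte homeostasis list. Nr2e1, a nuclear receptor of adult neural stem cells that is named after its values were seen, had 74 UMIs in astrocyte-like and 10 in other brain-class cells, a log2 ratio of 2.96.

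The medians of the 3 reactive lists lay below 0. Each ratio is taken against all other brain-class cells, so whether astrocyte-like cells were reactive was not tested. Among the 7 classes with at least 20 cells, only Gfap and S100a10 of these lists' measured genes were highest in astrocyte-like cells. Genes under 20 UMIs were left out. Among these, Aspg, with 12 UMIs in astrocyte-like and 0 in other cells, and Cd44 were highest in astrocyte-like cells. Steap4 (0 and 7 UMIs) and B3gnt5 (0 and 16) were not. Endothelial-like cells had the highest level of Hspb1 (19.1), H2-D1 (12.5) and Srgn (6.98). Pericyte-like cells had that of S1pr3 (3.73) and Cp (3.68), and microglia-like cells that of Cd14 (3.27). Of 9 measured pan-reactive genes, Gfap alone was at least 4-fold higher and Hspb1 alone was called at least 4-fold lower, with a median of -1.10. After Gfap came the cytokine receptor Osmr (0.95), Serpina3n (0.83) and Vim (-0.98), and the lowest were the small heat shock gene Hspb1 (-4.03), Cp (-1.83), Lcn2 (-1.44) and S1pr3 (-1.37). Lcn2, a lipocalin induced strongly in reactive astrocytes, had 0 UMIs in astrocyte-like cells and 95 in other cells. The pseudocount kept its ratio above the cutoff for lower. Of 10 measured genes of the neuroinflammation type (A1), none was at least 4-fold higher and 4 were lower: Srgn (-3.73), the class I genes H2-D1 (-3.03) and H2-T23 (-2.87) and the immunoproteasome gene Psmb8 (-2.78). Fkbp5, with 0 UMIs in astrocyte-like and 80 in other cells, and Gbp2, with 0 and 60, were not called lower. The highest of the A1 genes were Fbln5 (0.01), Iigp1 (-0.83), Ggta1 (-0.85) and Serping1 (-0.91). Reads of H2-D1 and H2-T23 may be split with other class I genes, which share 34.5% and 31.2% of their 3' words.

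Of 7 measured genes of the ischaemia type (A2), S100a10 (2.07) was at least 4-fold higher and Tm4sf1 (-3.23) and Cd14 (-3.18) lower, with a median of -0.62. With a pseudocount of 1 no gene of this list was at least 4-fold higher. The other members tested were Ptx3 (-0.05), Stat3 (-0.47), Ptgs2 (-0.62) and Clcf1 (-1.31). Of 11 measured intermediate filament genes, Gfap alone was at least 4-fold higher, none was called lower, and the median was -0.94. The pseudocount limited this call: Des had 0 UMIs in astrocyte-like and 96 in other brain-class cells and was not called. After Gfap came Nefl (0.08), Lmnb2 (0.04) and Lmna (-0.50), and the lowest were Bfsp2 (-1.62), a lens filament gene, Des (-1.45), Synm (-1.39) and Nes (-1.16). Of 15 astrocyte homeostasis genes, 13 were at least 4-fold higher, with a median of 4.78, but 10 of the 15 were astrocyte markers that named the class. Their highest were Aldoc (5.70), Slc1a2 (5.56), Gja1 (5.56) and Aqp4 (5.45), and their lowest Glul (1.81), Kcnj10 (1.85), Apoe (3.63) and Atp1b2 (3.80).

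Of 3 measured fatty acid-binding protein genes, Fabp7 (2.10) was at least 4-fold higher, though not with a pseudocount of 1, Fabp5 had a log2 ratio of 1.71 and Fabp3 -0.10. Fabp5 was at 9.33 UMIs per 10,000 in astrocyte-like cells and had its highest level among the 7 classes with at least 20 cells, 11.9, in mature oligodendrocyte-like cells. In the serpin A3 cluster Serpina3n was the single gene measured, with Serpina3g at 3 UMIs. Of 6 measured ligands and partners of Cd44, Ezr (2.73), a membrane linker of the cortex, and Mmp14 (2.10) were at least 4-fold higher. With a pseudocount of 1 neither was, and in the old rows 1 gene of the list was. Msn (-2.11), a linker related to Ezr, was lower. Nf2 was at 0.15, Rdx at -0.40 and Spp1, the ligand osteopontin, at -0.46.

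**Figure D4:**
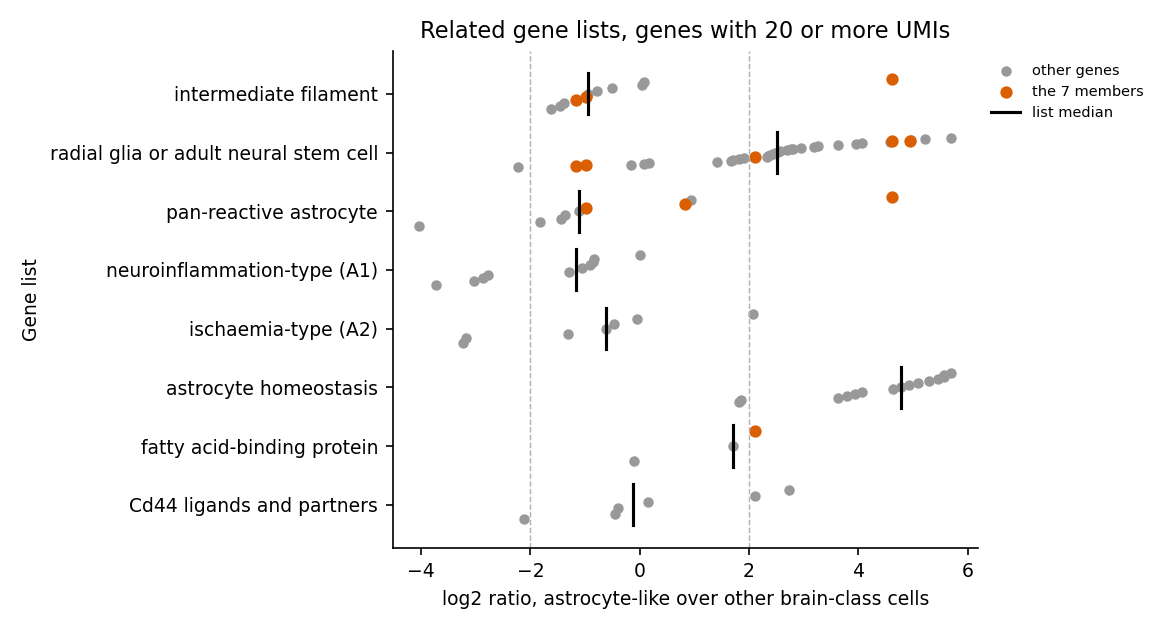
Log2 ratio of astrocyte-like to other brain-class cells (x axis, young library) for genes with at least 20 UMIs in 8 lists (y axis). Orange dots are those of the 7 members that had enough UMIs, grey dots other genes, black lines list medians, and dashed lines mark 4-fold; the homeostasis and radial glia medians lie at 4.78 and 2.51, and the 3 reactive medians at -1.10, -1.17 and -0.62.

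The genes most like each member were found by Pearson's r of log2 levels over the 7 classes with at least 20 cells, which share 1 library. For Gfap these were Ngef, Gm266 and Ppp1r3g (r of 0.99 each), and for Hopx Aldh7a1, Ppip5k1 (0.99 each) and Chchd10 (0.98), all highest in astrocyte-like cells. For Fabp7 they were Adgra1, Ptprz1 and Sox6 (0.99 each), all highest in oligodendrocyte precursor-like cells. For Vim they were 1700020I14Rik (0.97), Tgfb2 (0.97) and Insr (0.96), and for Nes Csnk1g2, Mxra7 and Sdccag3 (0.98 each), all highest in endothelial-like cells. For Serpina3n they were Ltbp1 (0.99), Grin3a (0.99) and Fzd9 (0.98), and for Cd44 Mtx3, Tst (0.97 each) and Fam163a (0.96), but both members rest on 20 UMIs or fewer. The names depend on the measure: with Spearman's rho 2 of the 3 recurred for Vim and 0 for each of the other 6 members. Without the level filter 3 recurred for Hopx and Fabp7, 2 for Nes, 1 for Gfap, Vim and Serpina3n, and 0 for Cd44. Among the members r was 0.87 for Gfap and Hopx, 0.85 for Vim and Nes and -0.24 for Gfap and Nes. It was 0.89 for Fabp7 and Serpina3n, 0.94 for Cd44 and Gfap and 0.87 for Cd44 and Hopx. Values with Serpina3n or Cd44 rest on 20 UMIs or fewer of that member.

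The old and the young table gave similar levels of the members, as values of mostly the same cells. They are values of 1 set of cells and give no comparison of ages. Over barcodes in the same class in both tables, 22 pairs of a member and a class could be compared, with none at least 2-fold higher or lower in old and log2 ratios from -0.14 to 0.39. The share of all genes at least 2-fold higher in old was 0.131% for astrocyte-like cells, 0.215% for oligodendrocyte precursors, 0.223% for mature oligodendrocytes, 0.201% for neuroblasts, 0.162% for microglia, 0.172% for endothelium and 0.194% for pericytes. The share at least 2-fold lower was 0.0109%, 0.0165%, 0.0149%, 0.0155%, 0.0101%, 0.0157% and 0.0243% in the same order of classes. Gfap was 5.56 in the old and 5.74 in the young table in the 292 shared astrocyte-like cells, Fabp7 5.10 and 5.25, and Vim 0.953 and 0.896.

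Hopx was the member furthest apart in these cells. In the same 292 barcodes it had 1416 UMIs in the old table (level 14.8) and 968 in the young table (level 11.3). The log2 ratio was 0.39 (ratio 1.21 to 1.43), where the median of all genes was -0.01. That interval takes the 2 counts as independent, though they come from the same barcodes, so it does not measure a difference of ages. Over all astrocyte-like cells Hopx was 14.7 in 311 old and 11.2 in 304 young cells. Over all cells of a class, 24 pairs were compared, and 2 were at least 2-fold lower in old, both for Hopx. It was 0.151 in old and 0.539 in young oligodendrocyte precursor-like cells, and 0.312 in old and 0.807 in young neuroblast-like cells. In the precursor-like class 0.155% of genes were at least 2-fold higher and 0.218% lower, and in the neuroblast-like class 0.21% and 0.18%. The shares higher and lower were 0.14% and 0.0108% for astrocyte-like cells, 0.223% and 0.0149% for mature oligodendrocytes, 0.162% and 0.0101% for microglia, 0.172% and 0.0156% for endothelium, and 0.236% and 0.165% for pericytes. In young precursor-like cells 17 of 19 Hopx UMIs were in 1 cell, and the level without it was 0.0567. In young neuroblast-like cells 14 of 36 were in 1 cell, and the level without it was 0.493. Over the 55 shared neuroblast-like barcodes Hopx was 0.313 in old and 0.30 in young.

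**Figure D5:**
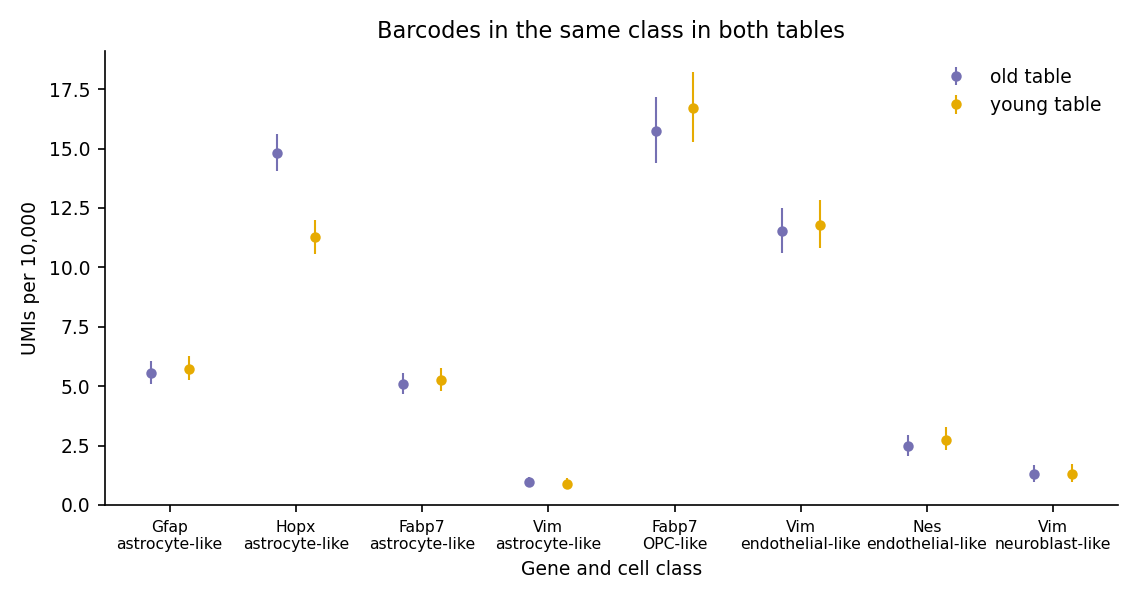
Level (y axis, UMIs per 10,000) of 8 pairs of a gene and a cell class (x axis) over barcodes that fell in the same class in both tables, with old left of young and 95% counting intervals. Hopx in astrocyte-like cells, at 14.8 in old and 11.3 in young, is the pair whose intervals do not overlap. The intervals take old and young counts as independent, though they come from the same barcodes.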

How the data were processed

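Single-cell RNA was measured in 1 old and 1 young library. The authors deposited natural log values, ln(1 + UMIs per 10,000), a unit read from the values; Cell Ranger 5.0.0 and mm10 are named in the submitters' processing notes. Whole UMI counts were recovered from the deposited values in 100% of values within 0.01, so levels are summed UMIs per 10,000 with exact Poisson intervals, shares have exact binomial (Clopper-Pearson) intervals, and ratios have exact conditional intervals. Columns of other samples numbered 0.

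Cells were clustered with scanpy 1.11.5 (Leiden, resolution 1, 2000 variable genes, 30 components, 15 neighbours) without the 7 genes. A class needed 3 markers, each in at least 25% of a cluster's cells and 4-fold higher there. Clusters with a median mitochondrial share under 1% were set apart. Scrublet marked 18 old and 34 young doublets (1.26% and 1.38%), which were kept. Genes with at least 20 UMIs over brain-class cells were compared between classes, with a pseudocount of 0.1. Cells were thinned in 1 seeded draw per depth, and neuroblast-like cells split by a member in a separate seeded draw.

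With 1 library per age nothing was tested over samples; scripts were tested on simulated data. Named genes were the 10 highest and 5 lowest ratios in the Gfap split, the 5 highest in the others, the 4 highest and lowest of each list and the 3 most alike. The members and lists were chosen with earlier results of these data known. Gene positions are those of GENCODE M21, which matched 17403 of 17592 columns (98.9%) by name. Alternatives were other pseudocounts, cutoffs, depths, clusterings and cell sets; 1 planned cell set is not reported here.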

Additional observations from a re-analysis of the deposited data

Results flagged for a closer look

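Vim was high in cells that the comparisons above do not use. The 1315 young cells set apart for their near absence of mitochondrial transcripts had a Vim level of 25.5 UMIs per 10,000 (24905 UMIs), and 96.4% of them had a UMI. Across their clusters the level ran between 6.78 and 36.9. The other members were at 0.0287 (Fabp7) or lower there, and Serpina3n had no UMI.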

How the results depend on the processing

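Of 256 alternative values, 189 stayed close to the reported one, 65 moved and 2 changed sign. For astrocyte-like over other brain-class cells, weighting each cell alike gave log2 ratios of -1.75 for Vim, -1.87 for Nes, 4.48 for Hopx and 1.80 for Fabp7. A pseudocount of 1 gave 2.56 for Gfap, -0.59 for Vim, -0.28 for Nes, 3.27 for Hopx and 1.55 for Fabp7, so that under both settings Fabp7 was under 4-fold. For Hopx the old rows gave 5.40, barcodes of the same class in old and young rows alike 5.24, and leaving out the top cell of each class 5.25.

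In percentage points, the excess of Hopx with Gfap (30) was -0.78 thinned to 2000 UMIs and 3.11 thinned to 1000. That of Fabp7 with Gfap (29.6) was -10.4 and 1.11 thinned, and 15.5 with at least 2 UMIs required. That of Fabp7 with Hopx (40.1) was 23.5 and 16.9 thinned. With Vim, Hopx (40.0) was 4.22 thinned to 2000, 51.6 with at least 2 UMIs and 28.1 in the old rows; Gfap (28.5) was 8.37 thinned to 1000 and 39.4 with at least 2 UMIs; Fabp7 (23.8) was 1.19 thinned to 1000. Genes at least 2-fold higher and lower with Gfap (197 and 180) numbered 12 and 13 thinned, where fewer genes were compared, and 332 and 448 at a minimum of 20 UMIs. With a pseudocount of 1 the radial glia list had 11 genes at least 4-fold higher (23 as reported), the A2 list 0 (1), the fatty acid-binding list 0 (1) and the Cd44 partners 0 (2; 1 in the old rows). The cause of the other changes was not tested. Thinning to 1000 UMIs was chosen after seeing the data. No test between ages was possible because each age has 1 library.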
